A study of Mus musculus with 24 samples.

Results

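Dlk1, Meg3, Peg3, Mest, Plagl1, Grb10, Ndn and Sgce are 8 imprinted genes of the mouse imprinted gene network, considered here without Igf2 and Cdkn1c (p57). They were chosen by gene symbol, from 18193 genes named by a single symbol on the arrays, and were represented by 35 probe sets. Expression was measured in C2C12, mouse myoblasts that stop dividing and form myotubes when serum is reduced. Control cells carried pSuperR without an insert, called vector cells here, and knockdown cells carried pSuperR expressing a short hairpin RNA (shRNA) to p68, an RNA helicase that is the product of Ddx5. Both kinds of cell were sampled in growth medium (GM) and in differentiation medium (DM). The 4 groups were vector cells in GM, vector cells in DM, p68 shRNA cells in GM and p68 shRNA cells in DM, and the controls of both media carried the vector. Each group had 3 arrays of the MA design and 3 of the MB design, 24 in all. Time in medium, the number of clones and whether replicates were separate cultures are not given in the labels, so the p-values measure the spread between arrays, which may be technical.

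Imprinted genes are transcribed mainly from the copy inherited from a single parent. Many of them control growth before birth, are coexpressed in embryonic tissues including muscle, and decline after birth. Plagl1 (Zac1), a zinc finger transcription factor, is known to act on other members of the network.

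Groups were checked against the target of the shRNA and against muscle genes on the MA arrays. Ddx5 had a mean signal of 464.3 with the vector and 372.0 with the shRNA in GM, and 540.8 and 326.0 in DM. Its log2 change was -0.68 ± 0.15 in DM (limma, adjusted p = 0.00677) and -0.31 ± 0.15 in GM, which did not pass (adjusted p = 0.287). Myogenin (Myog) rose in DM by 6.19 in vector and 6.12 in shRNA cells. The summed signal of 10 skeletal muscle markers lay between 2911 and 3894 in the GM arrays, and in DM between 42170 and 64570 with the vector and between 32290 and 36430 with the shRNA. Of these 10 genes, 5 were lower with the shRNA in DM and 0 higher, where 6.24% of all tested MA probe sets were lower and 10.7% higher. The part of this difference in the shRNA results for the imprinted genes was not tested. Of the markers of other cell types, the signal minimum was reached by 3 of 6 measured adipocyte genes, 3 of 6 osteoblast and cartilage genes, 5 of 7 macrophage genes and 1 of 6 endothelial genes. The summed adipocyte signal was 334.2 to 437.1 in GM and 190.4 to 286.6 in DM, lower in every DM array than in any GM array, and its part in the results was not tested. The largest part of this sum was Cebpa, with means in GM and DM of 241.0 and 146.7 (vector) and 288.3 and 143.0 (shRNA). Those of Pparg were 29.77 and 16.89, and 42.64 and 12.17. Those of Retn were 62.26 and 36.71, and 51.19 and 57.83. Adipoq, Lep and Fabp4 reached 30 in no array. Among MA arrays, replicate 3 of the vector cells in DM stood furthest from its group, with a mean correlation across probe sets of 0.951 against 0.962 to 0.983 for the others. That array also had the lowest log2 ratio of 3' to 5' control probe sets, -0.084, where the other DM arrays ranged from -0.058 to 0.03 and the GM arrays from 0.01 to 0.108.

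Mest and Plagl1 rose in DM in both vector and shRNA cells, and in DM both were higher with the p68 shRNA than with the vector. Ndn fell in DM at all 3 tested probe sets in vector cells and at 2 of 3 in shRNA cells. Grb10 rose in vector cells, and the brightest MA probe sets of Dlk1, Meg3, Peg3 and Sgce were called in none of the comparisons by limma. Of the 24 MA probe sets of these genes, 13 reached a signal of 30 in at least 3 of 12 arrays and were tested. In vector cells 5 of the 13 rose and 3 fell in DM, 61.5%, where 49.3% of all 14367 tested MA probe sets were called, 23.9% as rises and 25.4% as falls. In shRNA cells 2 rose and 2 fell, 30.8% against 33.9% of all (16.3% rises and 17.5% falls). In GM 1 was higher with the shRNA and 0 lower, 7.69% against 6.56% (3.99% higher and 2.57% lower). In DM 2 were higher with the shRNA and 1 lower, 23.1% against 16.9% (10.7% higher and 6.24% lower). The response to the medium differed between constructs at 3 probe sets, 1 upwards and 2 downwards in shRNA cells, 23.1% against 9.95% (5.48% and 4.48%). Groups did not overlap at 8 of the 13 for DM against GM with the vector (53.9% of all MA probe sets) and at 7 with the shRNA (50.6%). For shRNA against vector they did not overlap at 4 in GM (30% of all) and at 7 in DM (30.7%). Several probe sets passed the signal minimum mainly through the group where they were high, so these counts describe the 13 that were tested and not all members. The median log2 change of the 13 was 0.315 in vector and -0.27 in shRNA cells for DM against GM, beside 0.008 and -0.003 over all MA probe sets. It was 0.165 in GM and 0.045 in DM for shRNA against vector, beside 0.039 and 0.052.

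**Figure D1:**
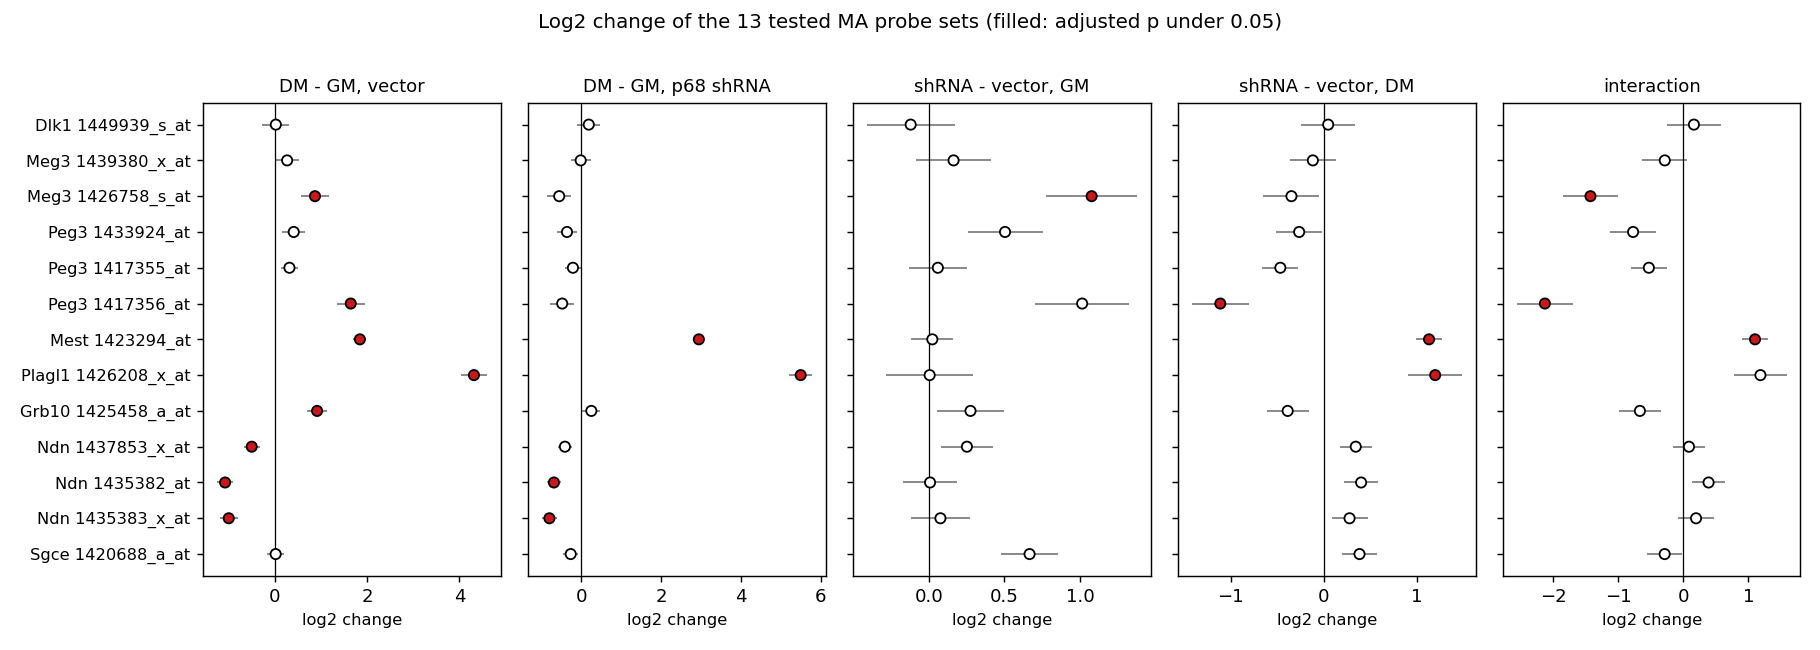
Log2 change (x axis, points, with bars of 1 standard error) of the 13 tested MA probe sets (rows) in 5 comparisons; filled points have an adjusted p under 0.05 in limma. Mest and Plagl1 stand to the right for DM against GM in both constructs and for shRNA against vector in DM, and all 3 Ndn probe sets stand to the left for DM against GM.

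Mest encodes an alpha/beta hydrolase fold enzyme expressed from the paternal copy. Its MA probe set (1423294_at, gene ID 17294) gave signals of 283.8, 203.9 and 228.2 in vector cells in GM (replicates 1, 3 and 4) and 935.6, 964.6 and 772.0 in DM (replicates 1, 2 and 3). In shRNA cells the signals were 224.6, 276.3 and 224.6 in GM (replicates 2, 3 and 4) and 1849, 1844 and 2189 in DM (replicates 1, 2 and 3). The GM arrays of the constructs overlapped, every DM array lay above every GM array, and every shRNA array in DM lay above every vector array in DM. In vector cells Mest rose by 1.84 ± 0.14 on the log2 scale in DM (adjusted p = 5.63e-08). The rise in shRNA cells was 2.94 ± 0.14 (adjusted p = 7.82e-10), and the difference between these responses was 1.10 ± 0.20 (interaction, adjusted p = 0.00281). Direct comparison of shRNA with vector cells gave 1.13 ± 0.14 in DM (adjusted p = 6.93e-05), where in GM it gave 0.02 ± 0.14 (adjusted p = 0.951). These comparisons share groups of arrays and are not independent. An array sample does not separate fewer cells with a transcript from less transcript per cell. Without vector replicate 3 of DM, the change with the shRNA in DM was 1.03.

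Plagl1 went from signals under 3 in GM to between 157.1 and 880.7 in DM. At probe set 1426208_x_at (gene ID 22634) the vector cells had 1.65, 2.65 and 1.30 in GM and 456.6, 449.5 and 157.1 in DM, in the replicate order given for Mest. The shRNA cells had 2.57, 1.79 and 1.47 in GM and 880.7, 710.6 and 678.2 in DM. All GM arrays were far below 30, so this probe set was tested through its DM arrays alone and the rise is given as a description. Replicate 3 of the vector cells was the lowest DM array. The log2(signal + 15) change in DM was 4.31 ± 0.29 with the vector (adjusted p = 1.48e-08) and 5.50 ± 0.29 with the shRNA (adjusted p = 2.63e-09), which understates the ratio of the signals. With the shRNA Plagl1 was higher in DM by 1.19 ± 0.29 (adjusted p = 0.01), and in GM the change was 0.01 ± 0.29 (adjusted p = 0.993). The interaction of 1.19 ± 0.41 did not pass (adjusted p = 0.0838). Without vector replicate 3 of DM, the array with the lowest 3' to 5' ratio, the change with the shRNA in DM was 0.71 (adjusted p = 0.00412) and the interaction was 0.71 (adjusted p = 0.03). Without vector replicate 1 of DM the interaction was 1.43 (adjusted p = 0.0355), and with only the DM arrays in the fit the change with the shRNA was not called (adjusted p = 0.0556).

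The other probe sets of Plagl1 did not show this rise. The MA probe set 1450533_a_at stayed between 1.14 and 7.77 in all arrays and was not tested. On the MB arrays, probe set 1438588_at ranged from 17.95 to 177.9 with overlapping groups, and its change in DM was -0.65 ± 0.61 in vector cells and 0.15 ± 0.61 in shRNA cells (adjusted p = 0.636 and 0.965). The rise of Plagl1 therefore rests on a single probe set of 3, whose suffix x_at marks, in the array maker's naming, probes that may also match other transcripts.

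**Figure D2:**
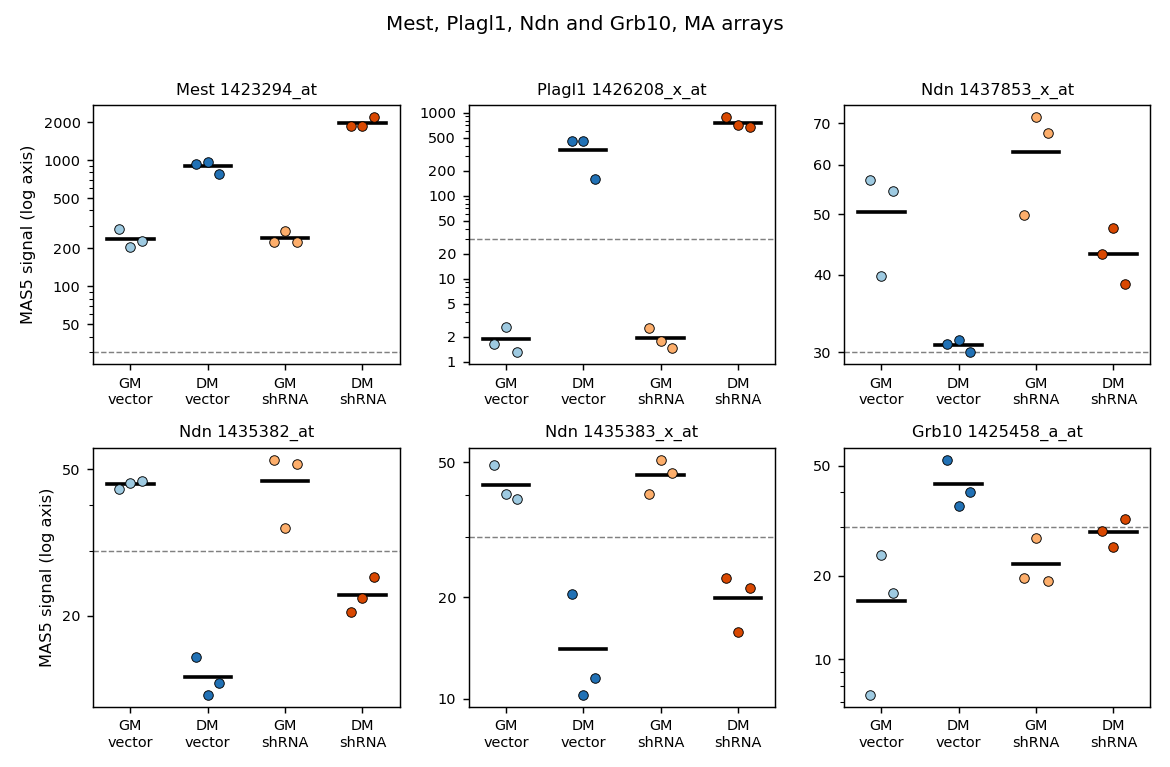
MAS5 signal (log axis) of each MA array for Mest, Plagl1, Ndn and Grb10; points are arrays, bars are means of 3 arrays and the dashed line is the minimum of 30 used for testing. Mest reached 1844 to 2189 in shRNA cells in DM against 772.0 to 964.6 in vector cells, and Ndn 1435382_at lay between 12.20 and 25.41 in DM against 34.64 to 52.96 in GM.

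Because Mest and Plagl1 rose together in DM and Ndn fell, the 250 bases before their annotated starts (RefSeq, GRCm38.p6) are shown, for both start regions of Mest. Capitals mark E-boxes, the letters CANNTG, which read the same on both strands and are the core that MyoD and its relatives bind.
Mest, chr6:30733256-30733505, plus strand: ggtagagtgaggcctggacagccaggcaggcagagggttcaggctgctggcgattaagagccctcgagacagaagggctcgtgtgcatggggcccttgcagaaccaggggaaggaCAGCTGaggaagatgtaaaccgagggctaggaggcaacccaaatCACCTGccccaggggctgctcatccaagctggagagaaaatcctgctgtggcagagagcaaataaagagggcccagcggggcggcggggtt
Mest, chr6:30737800-30738049, plus strand: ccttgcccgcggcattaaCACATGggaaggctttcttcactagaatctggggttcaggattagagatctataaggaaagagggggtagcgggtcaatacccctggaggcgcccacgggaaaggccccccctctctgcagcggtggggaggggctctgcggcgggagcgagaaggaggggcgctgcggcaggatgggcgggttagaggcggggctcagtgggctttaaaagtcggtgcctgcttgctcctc
Plagl1, chr10:13090582-13090831, plus strand: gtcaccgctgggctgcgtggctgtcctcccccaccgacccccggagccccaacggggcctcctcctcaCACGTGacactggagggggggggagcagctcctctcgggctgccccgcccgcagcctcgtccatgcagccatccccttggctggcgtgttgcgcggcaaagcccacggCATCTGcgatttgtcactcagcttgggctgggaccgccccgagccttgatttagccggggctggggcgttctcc
Ndn, chr7:62348027-62348276, plus strand: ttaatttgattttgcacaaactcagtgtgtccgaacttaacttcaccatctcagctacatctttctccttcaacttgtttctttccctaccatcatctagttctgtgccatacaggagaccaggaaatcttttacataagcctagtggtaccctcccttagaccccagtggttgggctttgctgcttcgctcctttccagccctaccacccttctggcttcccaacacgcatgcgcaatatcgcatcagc
The upstream Mest window held CAGCTG and CACCTG, 135 and 91 bases before its start, and the downstream window held CACATG at 232 bases. The Plagl1 window held CACGTG at 182 and CATCTG at 74 bases, and the Ndn window held no match. Such a match is common: 66.2% of 32851 windows of the same length held at least 1. Of the 8 genes, 7 had windows in the table (all but Sgce), 11 windows in all, of which 6 held an E-box. A match describes these letters and is no evidence that a factor bound there.

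Ndn encodes necdin, a MAGE family protein that restrains cell growth. Of its 8 MA probe sets (gene ID 17984) 3 were tested, all with modest signals. At 1435382_at the signals in vector cells were 44.04, 45.93 and 46.35 in GM and 15.50, 12.20 and 13.14 in DM. With the shRNA they were 52.96, 34.64 and 51.73 in GM and 20.43, 22.34 and 25.41 in DM. Every DM array was lower than every GM array, and every shRNA array in DM was above every vector array in DM. This probe set and 1435383_x_at reached 30 in the 6 GM arrays and in no DM array, so they were tested through the group where they are high and the fall is given as a description. The fall in DM was -1.08 ± 0.18 with the vector (adjusted p = 0.00016) and -0.69 ± 0.18 with the shRNA (adjusted p = 0.00815). For shRNA against vector the change in DM was 0.40 ± 0.18 (adjusted p = 0.156), that in GM was 0.01 ± 0.18, and the interaction was 0.39 ± 0.25 (adjusted p = 0.405).

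The other tested Ndn probe sets had the same direction. At 1435383_x_at vector cells had a mean of 42.73 ± 5.49 in GM and 14.10 ± 5.54 in DM (SD, n = 3), a change of -1.001 ± 0.19 (limma adjusted p = 0.000564). Its fall in shRNA cells, from 45.91 to 19.93, was -0.80 ± 0.19 (adjusted p = 0.00487). At 1437853_x_at the changes were smaller, -0.50 ± 0.17 with the vector (adjusted p = 0.0243) and -0.42 ± 0.17 with the shRNA, which did not pass (adjusted p = 0.0766). The vector call at 1437853_x_at was lost without vector replicate 1 or 4 of GM, and the change in shRNA cells was called without shRNA replicate 2 of GM (-0.54, adjusted p = 0.043). The remaining 5 probe sets were not tested, and their signals lay between 0.431 and 39.55. In vector cells the means of 1415923_at, 1455792_x_at and 1438939_x_at were lower in DM than in GM. Those of 1456575_at (19.21 in GM and 20.66 in DM) and 1438978_x_at (7.29 and 11.39) were not. The tested 1435383_x_at and 1437853_x_at carry the suffix described for Plagl1.

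Grb10 encodes an adapter that binds the insulin and IGF1 receptors and dampens their signalling. Its brightest probe set (1425458_a_at, gene ID 14783) had signals of 7.43, 23.87 and 17.33 in vector cells in GM and 52.46, 35.80 and 40.01 in DM. In shRNA cells the signals were 19.63, 27.42 and 19.11 in GM and 28.94, 25.41 and 32.21 in DM. All GM arrays were under 30, so this probe set was tested through its DM arrays alone and the rise is given as a description. The vector groups did not overlap and the shRNA groups did. Grb10 rose in DM by 0.91 ± 0.22 in vector cells (adjusted p = 0.00337), and the change in shRNA cells was 0.25 ± 0.22 (adjusted p = 0.433). That these responses differ was not shown, since the interaction was -0.67 ± 0.32 (adjusted p = 0.223). For shRNA against vector the change in DM was -0.39 ± 0.22 (adjusted p = 0.274), with every shRNA array below every vector array, and that in GM was 0.28 ± 0.22 (adjusted p = 0.552). The other Grb10 probe sets, 1425457_a_at and 1430164_a_at, ranged from 5.58 to 32.97 and from 3.20 to 18.57 and were not tested.

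Peg3 encodes a large zinc finger protein, expressed from the paternal copy, that has been linked to cell death and to muscle stem cells. Its brightest probe set (1433924_at, gene ID 18616) had signals of 339.6, 220.7 and 364.6 in vector cells in GM and 566.1, 484.8 and 240.1 in DM. In shRNA cells it had 456.2, 388.9 and 461.4 in GM and 363.3, 304.9 and 337.0 in DM. The vector groups overlapped through replicate 3 of DM, while in shRNA cells every DM array was below every GM array. Its changes in DM were 0.41 ± 0.25 in vector cells and -0.36 ± 0.25 in shRNA cells, and neither passed (adjusted p = 0.191 and 0.287). For shRNA against vector the change was -0.27 ± 0.25 in DM and 0.50 ± 0.25 in GM (limma adjusted p = 0.527 and 0.271). The interaction was -0.77 ± 0.35 (adjusted p = 0.199), so with all arrays none of these was called.

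The other MA probe sets of Peg3 had the same signs. For 1417355_at, with signals between 167.0 and 385.9, the changes in DM were 0.31 ± 0.19 in vector and -0.21 ± 0.19 in shRNA cells (adjusted p = 0.197 and 0.433). At the dimmest, 1417356_at, the vector cells had 16.73, 3.38 and 17.58 in GM and 78.68, 75.31 and 53.48 in DM, and the shRNA cells had 44.88, 46.35 and 27.65 in GM and 8.23, 34.39 and 34.97 in DM. The vector arrays in DM lay above all others, and those in GM lay below all shRNA arrays except replicate 1 of DM. All vector arrays in GM were under 30, so the rise in vector cells is given as a description. This probe set rose in DM by 1.64 ± 0.31 in vector cells (adjusted p = 0.000444), its change in shRNA cells was -0.48 ± 0.31 (adjusted p = 0.254), and the responses differed by -2.13 ± 0.44 (interaction, adjusted p = 0.00658). With the shRNA it was lower in DM, at -1.11 ± 0.31 (adjusted p = 0.0216), and in GM its 1.01 ± 0.31 was not called (adjusted p = 0.066).

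Single arrays decided several Peg3 calls. Without vector replicate 3 of DM, 1433924_at rose in vector cells by 0.77 (adjusted p = 0.00209), was lower with the shRNA in DM (-0.63, adjusted p = 0.0224) and had an interaction of -1.13 (adjusted p = 0.00592). Without the same array, 1417355_at rose by 0.52 in vector cells (adjusted p = 0.0225) and was lower with the shRNA in DM (-0.68, adjusted p = 0.0153). At 1433924_at, replicate 3 was also the lowest GM array of vector (220.7) and shRNA cells (388.9), but not the lowest DM array of shRNA cells (337.0). Both GM arrays stayed in the fit, and whether arrays of this number deviate together at this probe set was not tested. The fall of 1417356_at with the shRNA in DM was not called without vector replicate 1 or 2 or shRNA replicate 1 of DM, where the adjusted p reached 0.0994, and its change in GM was called without vector replicate 3 or shRNA replicate 1 of DM (adjusted p = 0.0457 and 0.0289).

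Dlk1 and Meg3 neighbour each other. Dlk1, a membrane protein with EGF repeats that is related to the Notch ligands and restrains adipocyte formation, is expressed from the paternal copy, and Meg3, a long noncoding RNA, from the maternal copy. Dlk1 stayed at the bottom of the scale: its MA probe set 1449939_s_at (gene ID 13386) ranged from 7.13 to 33.29. Its changes in DM were 0.02 ± 0.29 in vector and 0.18 ± 0.29 in shRNA cells (adjusted p = 0.964 and 0.672), and those with the shRNA were -0.12 ± 0.29 in GM and 0.04 ± 0.29 in DM. On the MB arrays, 1442724_at ranged from 7.16 to 92.90, its highest signal being that of vector replicate 1 in DM. Its change in DM was 0.75 ± 0.46 in vector cells (limma adjusted p = 0.405). With the shRNA it was -0.84 ± 0.46 in DM (adjusted p = 0.56), where every shRNA array lay below every vector array. Neither passed.

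Meg3 had 5 MA probe sets (gene ID 17263), of which 2 were tested. Their changes had the same sign in all 5 comparisons and differed in size, and the dimmer of them was the one called. The brighter, 1439380_x_at, ranged from 60.98 to 148.7, and its changes in DM were 0.26 ± 0.25 in vector and -0.02 ± 0.25 in shRNA cells (adjusted p = 0.403 and 0.96). At 1426758_s_at the vector cells had 5.81, 18.23 and 4.15 in GM and 31.66, 22.65 and 30.83 in DM. With the shRNA it had 37.09, 31.35 and 36.50 in GM and 7.03, 39.53 and 17.41 in DM. The vector arrays in GM lay below the other groups apart from 2 shRNA arrays in DM, and no array reached 40. This probe set was higher in DM in vector cells (0.87 ± 0.30, adjusted p = 0.0264) and higher with the shRNA in GM (1.08 ± 0.30, adjusted p = 0.0464). Its change in DM in shRNA cells was -0.56 ± 0.30 (adjusted p = 0.173), and the interaction was -1.43 ± 0.43 (adjusted p = 0.0471).

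These Meg3 calls depended on single arrays. The rise in vector cells was lost without vector replicate 1 or 4 of GM or 1 or 3 of DM. The difference in GM was lost without vector replicate 1 or 4 or shRNA replicate 2, 3 or 4 of GM, or vector replicate 2 or shRNA replicate 3 of DM, and the interaction without any single MA array other than vector replicate 3 of GM and shRNA replicate 2 of DM (adjusted p up to 0.107). Without shRNA replicate 2 of DM, the fall of -0.90 in shRNA cells was called (adjusted p = 0.0286). The 3 untested MA probe sets lay between 0.338 and 41.21.

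Sgce encodes epsilon-sarcoglycan, the paternally expressed member of the sarcoglycans, membrane proteins bound to dystrophin. Its MA probe set (1420688_a_at, gene ID 20392) had signals of 52.61, 57.16 and 94.82 in vector cells in GM and 76.55, 52.97 and 74.00 in DM. With the shRNA it had 132.0, 104.1 and 107.4 in GM and 91.82, 84.75 and 99.82 in DM. In each medium every shRNA array lay above every vector array, and in shRNA cells every GM array lay above every DM array. The change with the shRNA in GM was 0.67 ± 0.19 (adjusted p = 0.0505) and that in DM was 0.38 ± 0.19 (adjusted p = 0.202), and neither passed. Sgce changed by 0.02 ± 0.19 in vector and -0.27 ± 0.19 in shRNA cells in DM (adjusted p = 0.954 and 0.304). The value in GM was called without vector replicate 4 of GM (0.89, adjusted p = 0.0134), or when any of the vector replicates 1, 2 and 3 in DM was left out (adjusted p = 0.0333 to 0.0455).

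**Figure D3:**
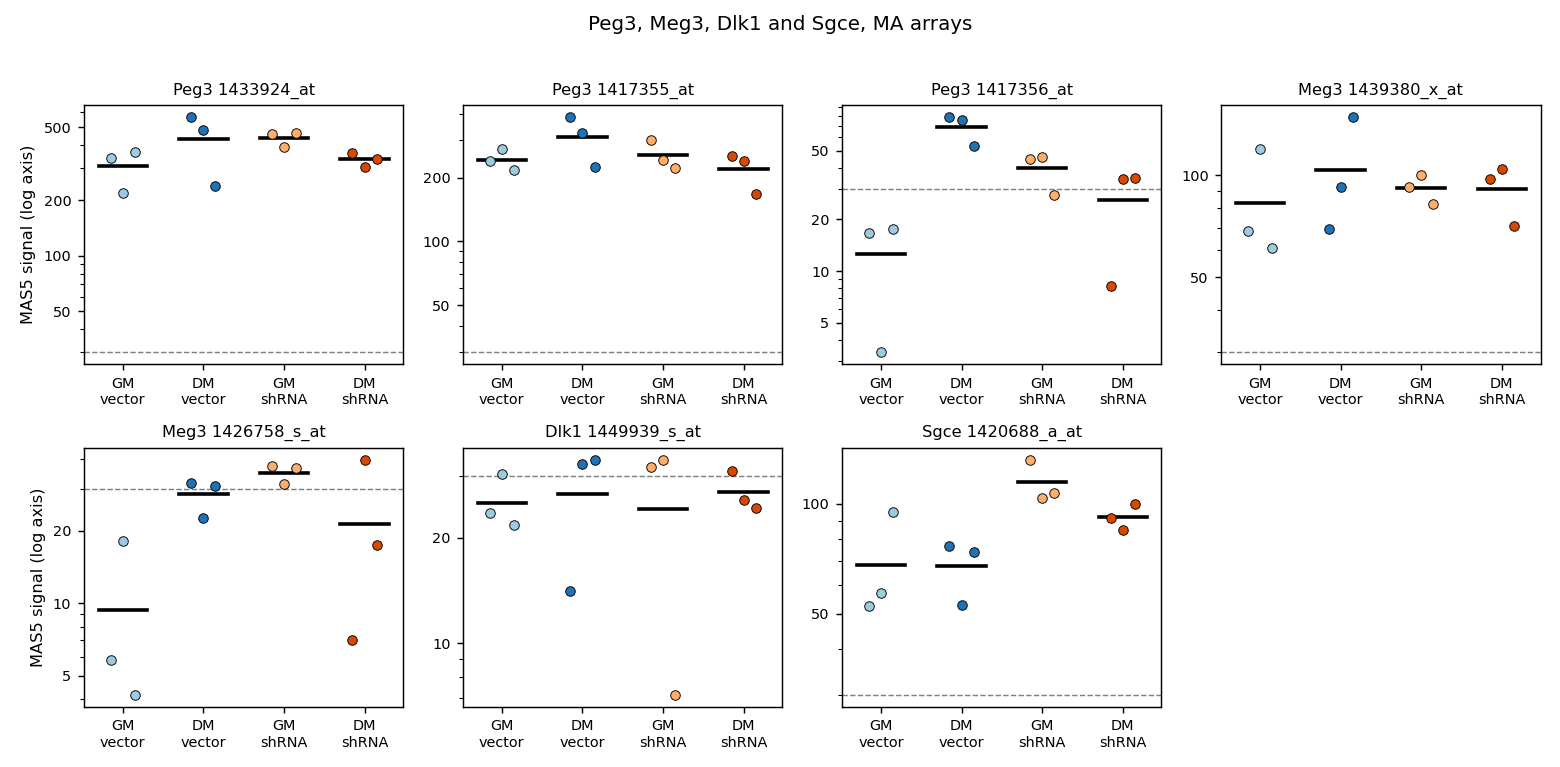
MAS5 signal (log axis) of each MA array at the tested probe sets of Peg3, Meg3, Dlk1 and Sgce; points are arrays, bars are means of 3 arrays and the dashed line is the minimum of 30. Replicate 3 of the vector cells in DM is the lowest of its group at all 3 Peg3 probe sets (240.1, 224.9 and 53.48), and Sgce is higher in each shRNA group than in the vector group of the same medium.

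The MB arrays carried 11 further probe sets, 10 of them tested, for Meg3 (6), Peg3, Plagl1, Sgce and Dlk1. None of the 10 was called by limma in any of the 5 comparisons, with 1 at an unadjusted p under 0.05 for the DM to GM comparison with the vector and 0 in each of the other comparisons. Among all 19303 tested MB probe sets, 9.21% were called for DM against GM with the vector and 4.85% with the shRNA. With the shRNA 0.275% were called in GM and 1.17% in DM, and 0.389% for the interaction. The spread between MB arrays was wide: standard errors of these 10 probe sets in the DM against GM comparison ran from 0.29 to 0.61.

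Meg3 gave its highest signals here. Its probe set 1429257_at had means of 236.9 ± 73.2 and 246.2 ± 73.7 in vector cells in GM and DM, and 238.2 ± 31.2 and 211.0 ± 102 in shRNA cells (SD, n = 3). At 1428764_at the signals in vector cells were 161.5, 282.3 and 186.0 in GM and 176.0, 44.82 and 101.5 in DM (replicates 1, 2 and 3), so the groups overlapped. That change of -0.995 ± 0.38 did not pass (limma adjusted p = 0.126), and it was called without vector replicate 1 of DM (-1.39, adjusted p = 0.0278). Vector replicate 2 of DM, the lowest array here, stood furthest from its group among MB arrays, with a mean correlation of 0.825 against 0.835 to 0.886 for the others. Without it the change was -0.56 (adjusted p = 0.443). In shRNA cells the same probe set changed by -0.53 ± 0.38 (adjusted p = 0.608). The Sgce probe set 1443518_at ranged from 5.94 to 123.0, and the Peg3 probe set 1447731_at from 10.59 to 67.33.

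**Figure D4:**
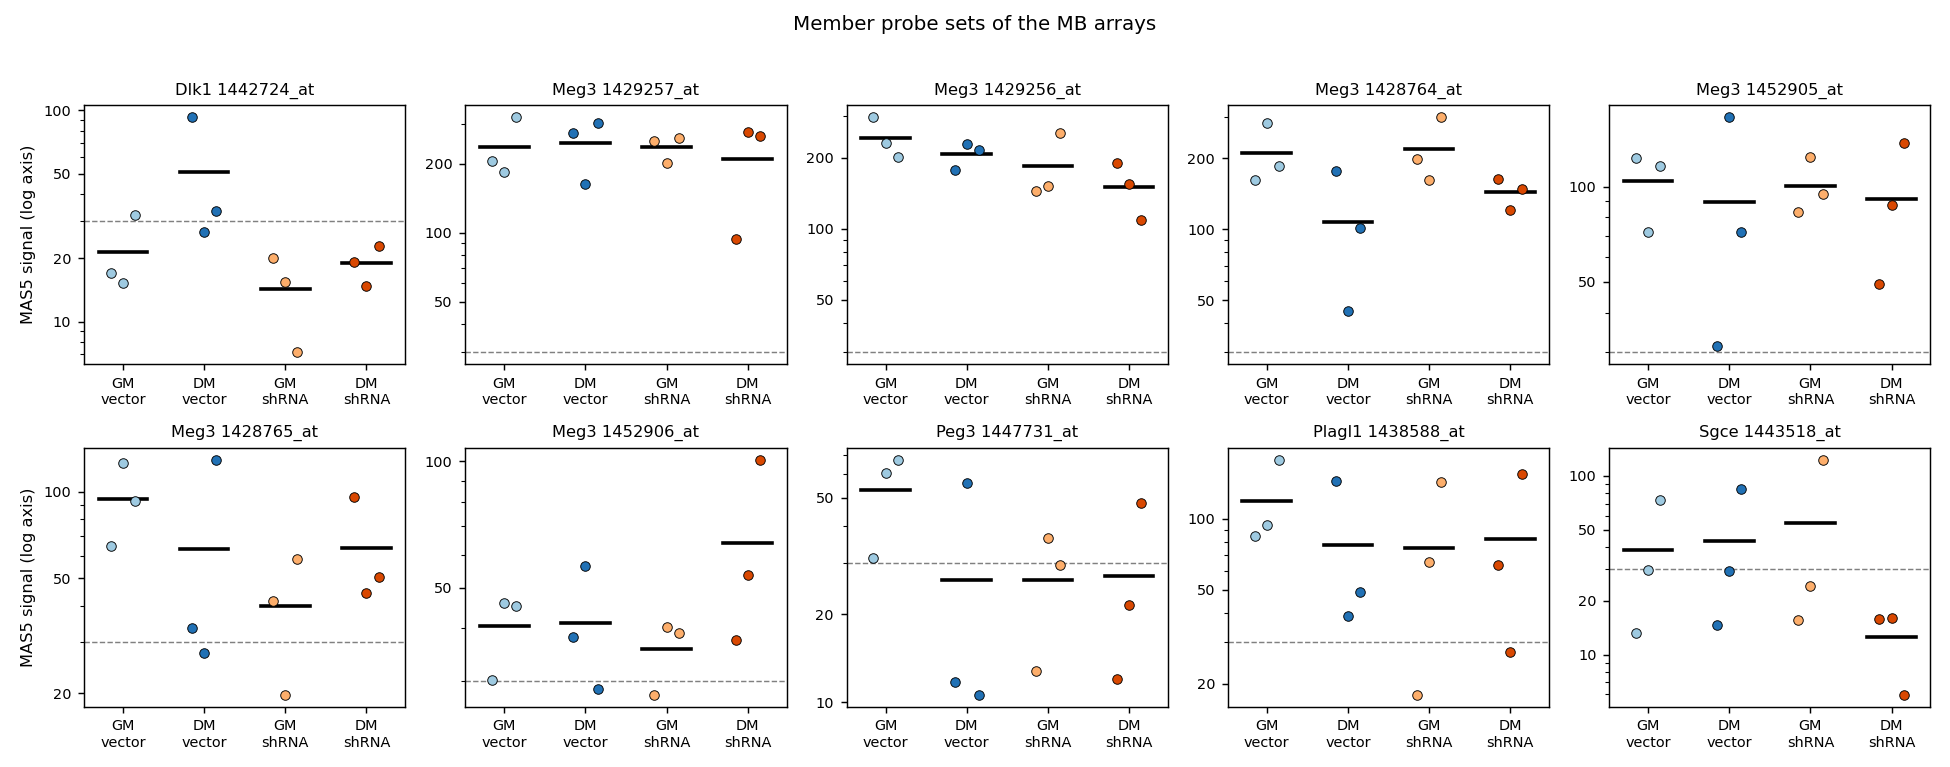
MAS5 signal (log axis) of each MB array at the 10 tested probe sets; points are arrays, bars are means of 3 arrays and the dashed line is the minimum of 30. Groups overlap in most panels, as at Meg3 1429257_at, whose 12 arrays run from 93.60 to 320.5.

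Other imprinted genes were described from a list. Of its 51 genes, 40 had an MA probe set and 19 were tested at the brightest one. In DM, 11 rose and 1 fell in vector cells (median 0.559), and 8 rose and 1 fell in shRNA cells (median 0.407). Over all MA probe sets, 23.9% rose and 25.4% fell with the vector (median 0.008), and 16.3% rose and 17.5% fell with the shRNA (median -0.003). Cdkn1c, an inhibitor of cyclin-dependent kinases, rose by 6.16 ± 0.21 in vector and 5.95 ± 0.21 in shRNA cells. Igf2, a fetal growth factor, rose by 5.04 ± 0.27 and 2.05 ± 0.27, and these responses differed by -2.99 ± 0.38 (adjusted p = 0.00023). Ddc, which makes dopamine and serotonin and neighbours Grb10, rose by 2.99 ± 0.17 and 2.07 ± 0.17, with an interaction of -0.92 ± 0.24 (adjusted p = 0.0268). Its GM means were 12.13 with the vector and 19.83 with the shRNA, so it was tested through its DM arrays. Gatm, an enzyme of creatine synthesis, rose by 2.49 ± 0.19 and 2.04 ± 0.19. Copg2, the neighbour of Mest, rose by 0.74 ± 0.15 and 0.68 ± 0.15; it was named for that position after its values were seen.

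With the shRNA, 3 of these 19 genes were lower in DM and 0 were higher, where 6.24% of all MA probe sets were lower and 10.7% higher. Igf2 changed by -1.04 ± 0.27, Gatm by -1.03 ± 0.19 and Ddc by -0.57 ± 0.17 (adjusted p = 0.0154, 0.00183 and 0.0344). In GM, 2 were higher with the shRNA, Igf2 by 1.95 ± 0.27 and the matrix proteoglycan gene Dcn by 0.97 ± 0.20 (adjusted p = 0.000764 and 0.00983). Over all MA probe sets, 3.99% were higher and 2.57% lower in GM. Dcn had GM means of 4.22 with the vector and 22.79 with the shRNA, under the minimum of 30, and was tested through DM arrays. Another 5 genes were measured on the MB arrays alone, and limma called 0 of them in any comparison, with 0 at an unadjusted p under 0.05.

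**Figure D5:**
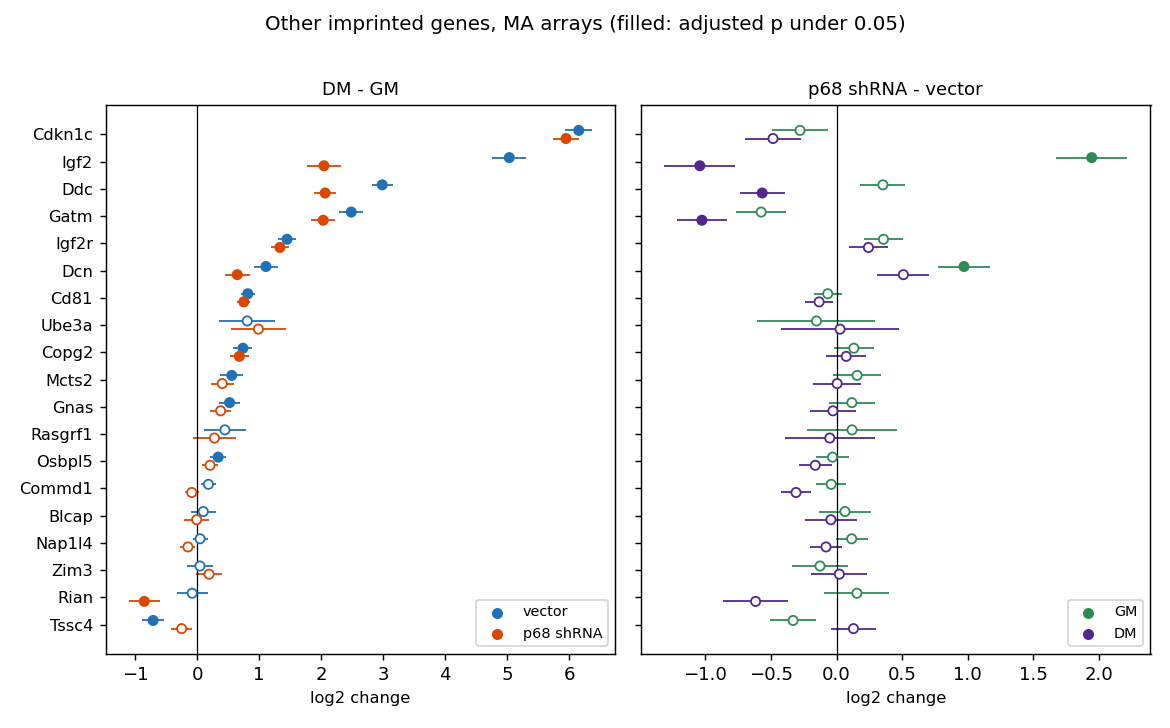
Log2 change (x axis, points, with bars of 1 standard error) of the 19 tested other imprinted genes of the MA arrays, for DM against GM with each construct (left) and for shRNA against vector in GM and DM (right); filled points have an adjusted p under 0.05 in limma. Cdkn1c rose by 6.16 in vector and 5.95 in shRNA cells, while Igf2 rose by 5.04 and 2.05.

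Genes that work with the members were described from lists on the MA arrays. Beside the counts below, 23.9% of all MA probe sets rose and 25.4% fell in DM with the vector. With the shRNA 16.3% rose and 17.5% fell. For shRNA against vector, 10.7% were higher and 6.24% lower in DM, and 3.99% higher and 2.57% lower in GM. The response to the medium differed between constructs at 5.48% upwards and at 4.48% downwards in shRNA cells. The lists are short, and their counts were not tested against these shares. The 5 tested genes of the sarcoglycan complex and its partners were Sgca, Sgcb, Sspn, Dag1 and Utrn. In each construct 4 rose in DM, all but Utrn, led by dystroglycan (Dag1, 2.35 and 2.13) and alpha-sarcoglycan (Sgca, 2.33 and 1.50). Sgce did not change detectably. Sgca and Sgcb were lower with the shRNA in DM (-0.71 and -0.46), and Sgcb was higher with it in GM (0.64). Of 12 genes of the Notch pathway, to which Dlk1 is related, 5 rose in DM and 5 fell with the vector, led by the ligand gene Dll1 (1.84) and the target Hey1 (1.74). In shRNA cells 7 rose and 1 fell, led by Notch1 (2.17) and Heyl (1.78). With the shRNA, 7 were higher in DM, led by Hes1 (1.30) and Hey1 (0.89), and Hey1 alone was higher in GM (1.08). The medium response differed upwards in shRNA cells at 5 and downwards at 0, led by Hes1 (1.50) and Notch3 (1.31).

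Among 15 genes of insulin receptor signalling, the pathway of Grb10, 4 rose in DM and 2 fell with the vector, led by the kinase gene Akt2 (1.41) and the docking protein gene Irs4 (-1.40). In shRNA cells 4 rose and 1 fell, and with the shRNA 3 were higher and 1 lower in DM, led by Irs1 (1.07) and Grb14, a relative of Grb10 (1.05). Grb14 was also higher in GM (1.35). Its vector means were 12.51 in GM and 7.59 in DM, so it was tested through shRNA arrays alone and its changes are given as a description. Of 6 genes of the MAGE family and partners of Ndn, 2 rose and 2 fell in vector cells, led by the cell cycle factor E2f1 (-2.03) and Maged1 (1.17). Of 5 genes tied to Peg3, 3 rose and 1 fell in vector cells, with the caspase gene Casp8 at -1.42 and the ubiquitin ligase gene Siah1a at 1.11. The responses of Siah1a and of Bnip3 differed between constructs (-1.20 and -1.04). Both genes were higher with the shRNA in GM (0.81 and 1.36). Of 6 relatives and targets of Plagl1, 2 rose and 1 fell in vector cells, the rises being Cdkn1c and Cdkn1a (2.21), and Socs3 was lower with the shRNA in DM (-1.20).

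Genes with the most similar pattern were found by the root mean square difference of log2 values, centred per probe set, over the 12 MA arrays. Nearest to Mest were Rgs16 (0.189), Cavin2 (0.277) and Notch1 (0.325). In vector cells Rgs16 had means of 1.95 in GM and 49.1 in DM, where Mest had 238.6 and 890.7. In shRNA cells Rgs16 had 2.31 and 118.5, where Mest had 241.9 and 1961. Rgs16 was at the bottom of the scale in GM, where the constant added before the log understates the ratio of the signals. Its closeness to Mest holds on this scale and not for the ratio of the signals. Cavin2 had mean signals of 145.6 and 597.8 in vector cells in GM and DM, and 140.6 and 908.3 in shRNA cells. Nearest to Plagl1 were the titin gene Ttn (0.657), the myosin gene Myh1 (0.729) and Pdlim3 (0.758), and these stood farther from it than the neighbours of Mest did. In DM their means with vector and shRNA were 580.1 and 394.1 for Ttn, 892.8 and 560.0 for Myh1, and 702.4 and 740.2 for Pdlim3, where Plagl1 had 354.4 and 756.5. Ttn and Myh1 thus resembled Plagl1 in the difference between media and had the opposite direction for shRNA against vector in DM. For Ndn at 1437853_x_at they were Glg1, Klhdc2 and Rnf135 (0.103 to 0.127), and for Grb10 Rrp1, Son and Map2k4 (0.157 to 0.167).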

How the data were processed

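RNA of 24 samples was measured on arrays of 2 designs, 12 each. The authors deposited 1 linear intensity per probe set and array; the summary method is MAS5, per the submitters' processing notes, with settings not given in the sources used here. The arrays were already scaled: the mean with 2% taken off each end was 150 to 150.1. The number of arrays limits the precision.

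Groups and replicate numbers came from the titles. Probe sets were named by the array annotation, using those with 1 symbol (20380 MA and 14661 MB). Signals were analysed as log2(signal + 15). Probe sets with a signal of 30 in at least 3 of 12 arrays were fitted in limma 3.58.1 (R 4.3.3) with 4 group means, eBayes with a trend, and Benjamini-Hochberg adjustment over all tested probe sets of a design at 0.05. Values are log2 change ± standard error. The fit was tested on simulated data. With 3 against 3 arrays the smallest exact permutation p is 0.1. Named genes were all members and the 3 most similar genes of each called leading probe set. Other genes were taken by largest called change, up to 4 other imprinted and 2 partner genes per comparison. Not every comparison of every partner list is given. Names followed the brightest probe set. Members and lists were chosen with earlier results of these data known. Alternatives covered pseudocount, filter, quantile scaling, trend, arrays fitted, replicate block and left-out arrays. The arrays held no values of other samples.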

Additional observations from a re-analysis of the deposited data

Results flagged for a closer look

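The medium response differed between shRNA and vector cells, by an interaction term in limma, at 3 probe sets. At Mest 1423294_at the difference was 1.10 (adjusted p = 0.00281), with a larger rise in shRNA cells. At Peg3 1417356_at it was -2.13 (adjusted p = 0.00658), and at Meg3 1426758_s_at -1.43 (adjusted p = 0.0471), where no array reached a signal of 40. At both of these probe sets all vector arrays in GM were under 30. The brighter probe sets of Peg3 (-0.77 and -0.53, adjusted p = 0.199 and 0.269) and Meg3 (-0.28, adjusted p = 0.686) did not pass. On the MB arrays no interaction passed, and some had the opposite sign: Peg3 1447731_at had 0.84, and of the 6 Meg3 probe sets 4 were above 0 (1428765_at 1.20, 1452906_at 0.57, 1428764_at 0.47 and 1452905_at 0.18) and 2 below 0 (1429257_at -0.33 and 1429256_at -0.04).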

How the results depend on the processing

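The calls for Mest, the DM calls for Plagl1 in both constructs, those of Ndn at 1435382_at and 1435383_x_at, of Grb10, and of Peg3 at 1417356_at in vector cells and for the interaction kept their direction and stayed called under every alternative in which they were tested; no called value changed sign. The Plagl1, Ndn and Grb10 probe sets among these were tested through the group where they are high. At Peg3 1417356_at all vector arrays in GM were under 30, and its change in vector cells ran from 0.93 to 2.19. That the calls of these Plagl1, Ndn, Grb10 and Peg3 probe sets stayed is therefore a description and adds no support. The pseudocount moved sizes most, Plagl1 in vector cells running from 2.85 to 5.56. With a filter of 75 fewer member probe sets were tested (12), and the calls numbered 2 for DM against GM in vector cells, 2 in shRNA cells and 1 for the interaction. For shRNA against vector in GM the single call became 2 with a pseudocount of 50, 0 without a filter, 2 with only the compared arrays and 0 with the replicate block. Leaving out 1 array gave 6 to 9 calls for DM against GM in vector cells, 4 to 5 in shRNA cells, 0 to 3 for shRNA against vector in GM, 2 to 5 in DM and 2 to 4 for the interaction. The replicate numbers were not taken to pair the arrays, since the labels do not say that they pair cultures. Among same-numbered pairs, 6 of 13 MA pairs had deviations correlated at over 0.1 (median 0.093) and 0 of 18 MB pairs did. Among MA pairs with different numbers 5 of 41 did (median -0.024), so same-numbered MA arrays deviated together somewhat more often, which is a hint from the data and not from the design. Without a filter all 35 member probe sets were tested, with 5 rises and 5 falls in DM in vector cells (10 calls against 8) and 2 rises and 4 falls in shRNA cells (6 against 4). Among the 23 probe sets of the main test, calls gained without leaving out single arrays were those of Sgce in GM with a pseudocount of 50 or a filter of 75, of Ndn 1437853_x_at in shRNA cells with quantile scaling or no trend, and, with only the compared arrays, of Peg3 1417356_at for shRNA against vector in GM and 1433924_at in shRNA cells. Calls lost in the same way were those of Plagl1 for shRNA against vector in DM with only the compared arrays, of Ndn 1437853_x_at in vector cells with only the compared arrays or the replicate block, and of Meg3 1426758_s_at with the block, without a filter (in GM and for the interaction) or with a pseudocount of 50 (interaction, adjusted p = 0.05). Signals near or under 30 limit what Dlk1, Grb10, Meg3 1426758_s_at and Peg3 1417356_at can show.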
